A study of Rattus norvegicus with 7 samples.

Results

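Il33, Fgl2 and Serpina3n are 3 genes of tissue alarm, clotting and protease control. In these arrays of rat testis they were chosen by their high signal on 1 array taken 20 h after cadmium chloride, so their height there is a description and not a finding. They are 3 of 14217 genes with a probe set of their own in the table. Of 31042 probe sets that are not controls, 7 are annotated to these genes alone, with 2 for Il33, 4 for Fgl2 and 1 for Serpina3n. All 7 are described on all 7 arrays, dim signals included.

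Testes came from adult male Sprague-Dawley rats, an outbred stock. One group was untreated (n = 3). The other groups had 3 mg/kg cadmium chloride, given once into the abdomen, with testes taken after 8 h (n = 2) or 20 h (n = 2). The labels name no vehicle-injected rats, and their replicates are called biological, so 1 array was taken as 1 animal, and p-values cover the spread between these arrays. The number of arrays limits the precision. Values are signals on a linear scale, and log2 values were taken after adding 15, which understates changes of dim probe sets. Hybridization spanned 3 days: day 1 held untreated replicate 1 with 20 h replicate 1, day 2 held untreated replicate 2 alone, and day 3 held the other 4 arrays. Each cadmium array was therefore also set against the untreated array of its own day. Germ cell markers gave high summed signals on all arrays, from 66267.1 to 100691.6 over 8 genes. These sums split by hybridization day. They were 66267.1 to 75306.3 on days 1 and 2, and 97675.8 to 100691.6 on day 3, untreated replicate 3 included.

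IL-33, the product of Il33, is a cytokine of the IL-1 family that is kept in the nucleus of endothelial, epithelial and stromal cells and is released when cells are damaged. It acts through a receptor made of ST2 (gene Il1rl1) and the IL-1 receptor accessory protein (gene Il1rap), which signals through MyD88 to NF-kB. Fgl2, fibrinogen-like protein, occurs as a membrane-bound enzyme that cleaves prothrombin on endothelial cells and macrophages, and as a secreted form that binds Fc receptors. Serpina3n is a secreted inhibitor of serine proteases, granzyme B and leukocyte elastase among them, and a product of the acute phase response, which STAT3 and C/EBP factors drive in many tissues.

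The promoter windows of 2 of these genes are shown because the 3 genes were high on the same array. RefSeq windows of 300 bases, from 250 before the start site to 50 after it on build GRCr8, were at hand for Il33 and Serpina3n. Capitals mark matches to searched motifs on either strand. The second Il33 window, chr1:237134696-237134995 on the plus strand, held 1 match, TTGCATAA, to the C/EBP motif TTGCNNAA. The Serpina3n window, chr6:129088142-129088441 on the plus strand, held TTCCCAGAA, a match to the STAT motif TTCNNNGAA, and GGGAGGAGCC, a match to the NF-kB motif.
Il33: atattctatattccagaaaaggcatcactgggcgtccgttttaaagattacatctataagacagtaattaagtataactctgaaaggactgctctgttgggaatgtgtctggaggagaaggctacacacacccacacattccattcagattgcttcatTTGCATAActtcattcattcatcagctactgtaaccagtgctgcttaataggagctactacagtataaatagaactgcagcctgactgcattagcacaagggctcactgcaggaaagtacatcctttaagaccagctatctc
Serpina3n: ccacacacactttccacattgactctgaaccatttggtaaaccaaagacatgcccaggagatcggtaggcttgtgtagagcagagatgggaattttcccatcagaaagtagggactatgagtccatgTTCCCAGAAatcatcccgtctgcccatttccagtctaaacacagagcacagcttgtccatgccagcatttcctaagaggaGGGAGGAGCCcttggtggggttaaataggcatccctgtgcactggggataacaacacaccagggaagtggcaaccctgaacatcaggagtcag

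Such matches are common: of 33469 rat windows, 10.6% held the C/EBP motif, 8.87% the STAT motif and 30.5% the NF-kB motif. The other Il33 window, chr1:237115323-237115622, held no match to any of the 8 motifs. The remaining 5 motifs were AP-1 (TGANTCA, in 7.33% of windows), the hypoxia element (ACGTG, 19.3%), the metal response element (TGCACNC or TGCGCNC, 24.2%), CRE (TGACGTCA, 1.83%) and the interferon-stimulated element (3.92%), and none of them matched in the 3 windows. A match is a run of letters and not a known binding site.

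Il33 was dim in untreated testis. Its brighter probe set, 1373970_at, gave 18.3, 26.5 and 23.8 on untreated replicates 1 to 3, 60.4 and 48.8 at 8 h, and 307.3 and 28.2 at 20 h. The 3 untreated signals lay below the 40th percentile of their arrays, which was 38.6 to 47.9. Both 8 h arrays were above all 3 untreated arrays, 20 h replicate 1 stood far above every other array, and 20 h replicate 2 was just above the highest untreated one. In whole testis a change in the number of cells of a type and in RNA per cell cannot be told apart. The second probe set, 1389581_at, gave 25.3, 23.4 and 11.0 untreated, 35.5 and 11.5 at 8 h, and 98.1 and 30.8 at 20 h. It too was highest on 20 h replicate 1, but its 8 h arrays parted, with 1 above and 1 inside the untreated range.

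Fgl2 signals were above the 40th percentile on all 7 arrays for each of its 4 probe sets. The one with the highest mean, 1392894_at, gave 241.8, 217.2 and 358.8 untreated, 367.7 and 309.7 at 8 h, and 1252.0 and 310.7 at 20 h. Here 20 h replicate 2 and 8 h replicate 2 lay within the untreated range. Probe set 1370623_at had the tightest controls, with 117.1, 114.7 and 117.4 untreated, 154.1 and 155.2 at 8 h, and 649.5 and 99 at 20 h. Both of its 8 h arrays were above the untreated arrays, and 20 h replicate 2 was below them. Probe set 1386637_at gave 101.5, 81.7 and 104.3 untreated, 155.3 and 119.8 at 8 h, and 547.6 and 104.0 at 20 h. Probe set 1383516_at gave 151.6, 69.0 and 188.1 untreated, 223.0 and 179.5 at 8 h, and 681.0 and 232.3 at 20 h. These 4 probe sets measure 1 gene, so their common course is no independent repeat.

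Serpina3n was dim in untreated testis, with 14.2, 21.5 and 35.0, each below its array's 40th percentile. The signals of 1368224_at were 39.7 and 21.4 at 8 h, and 398.1 and 24.3 at 20 h. Only 20 h replicate 1 stood clear of the untreated range by a wide margin: it was 10.03 times the next highest array, where this ratio was 5.09 and 2.76 for the Il33 probe sets and 2.93 to 4.18 for those of Fgl2. Serpina3n has near relatives in a gene cluster, and shared hybridization cannot be told apart from its own signal here. Its annotated relatives Serpina3c, Serpina3m and Serpina3l had signals of at most 6.3, 43.2 and 36.8 on any array, and none of them was highest on 20 h replicate 1.

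**Figure D1:**
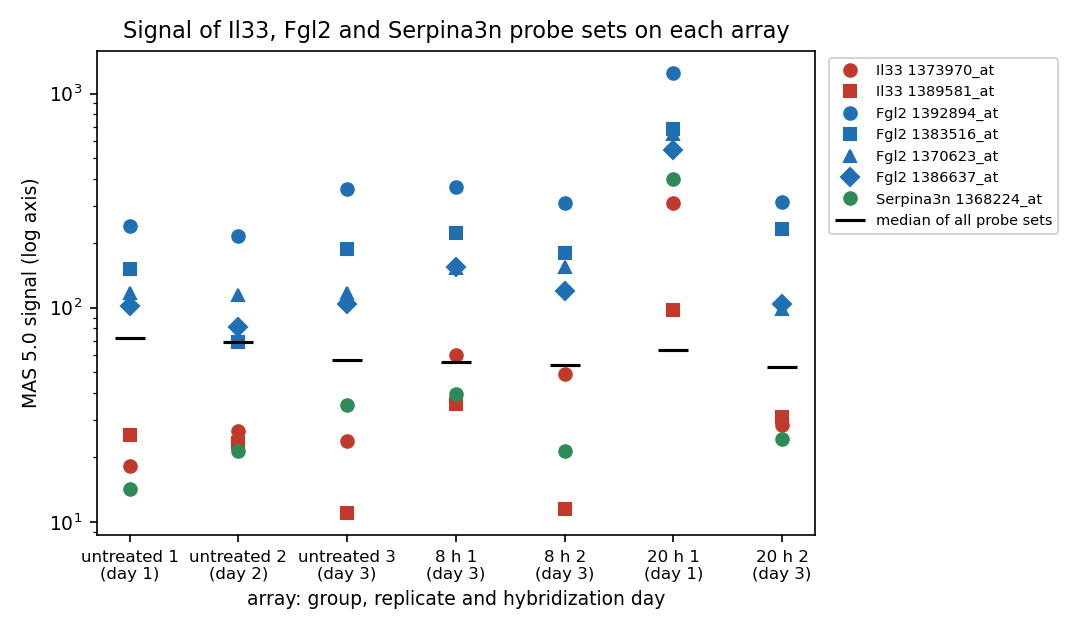
Signal of each of the 7 probe sets (log axis) on each array, with the group, replicate and hybridization day below; black bars are the median signal of all probe sets, 52.9 to 72.0. On 20 h replicate 1 all 7 probe sets lie above the other 6 arrays, for Serpina3n at 398.1 against at most 39.7.

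Against untreated replicate 1, hybridized on the same day, 20 h replicate 1 had 28.04 times the Serpina3n signal, 16.79 and 3.88 times the Il33 signals, and 4.49 to 5.55 times the Fgl2 signals. On the log2(signal + 15) scale these differences were 3.82 for Serpina3n, 3.27 and 1.49 for Il33 and 2.06 to 2.33 for Fgl2. In the order of same-day differences over all 31042 probe sets, Serpina3n was number 3 and Il33 1373970_at number 12. All 7 probe sets were at least 2-fold higher there, where 1.78% of all probe sets were. This array chose the genes, so nothing is read from that count.

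The second 20 h animal did not show this height. Set against untreated replicate 3 of its day, 20 h replicate 2 had 0 of 7 probe sets at least 2-fold higher on the log2(signal + 15) scale, beside 2.84% of all probe sets. On signals as deposited, Il33 1389581_at was 2.80 times its control there, both values being dim. Same-day log2 differences ran from -0.35 for Serpina3n to 0.82 for Il33 1389581_at, and from -0.22 to 0.28 over the Fgl2 probe sets. Between both 20 h animals the signal ratio was 16.38 for Serpina3n, 10.9 and 3.19 for Il33 and 2.93 to 6.56 for Fgl2. As group means with the spread of 2 animals, 20 h gave 211.2 ± 264 (SD, n = 2) for Serpina3n, 167.8 ± 197 (SD, n = 2) for Il33 1373970_at and 781.4 ± 666 (SD, n = 2) for Fgl2 1392894_at. Each SD is of the order of its mean. The fitted log2 differences between 20 h and untreated, given as a description, were 1.76 ± 0.80 (SE) for Serpina3n, 1.65 ± 0.67 (SE) for Il33 1373970_at and 1.07 to 1.55 over the Fgl2 probe sets.

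A test of 20 h on values the choice did not use was possible with 20 h replicate 2 alone. In limma, fitted over 20457 probe sets on 6 arrays with this lone animal assumed to vary like the other groups, 5 of the 7 probe sets passed the filter on dim signals. Serpina3n and Il33 1389581_at did not. Of the 5, 0 were called at an adjusted p of 0.05 and 0 had an unadjusted p below it. Over all probe sets the share called was 0.00%, with 1068 of them under an unadjusted p of 0.05; without untreated replicate 3 it called 638 probe sets, 0 of them of these genes. The log2 difference from untreated was 0.20 ± 0.45 (SE) for Il33 1373970_at (limma, adjusted p = 0.961). For Fgl2 it ran from -0.20 ± 0.25 (SE) for 1370623_at to 0.80 ± 0.44 (SE) for 1383516_at (limma, adjusted p = 0.911 and 0.878). By rank alone, 3 of the 7 probe sets were above all untreated arrays on 20 h replicate 2, both of Il33 and 1 of Fgl2, where 16.3% of all probe sets were. The limma fit without untreated replicate 3 held no untreated array of day 3, so its calls cannot be told apart from hybridization day.

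**Figure D2:**
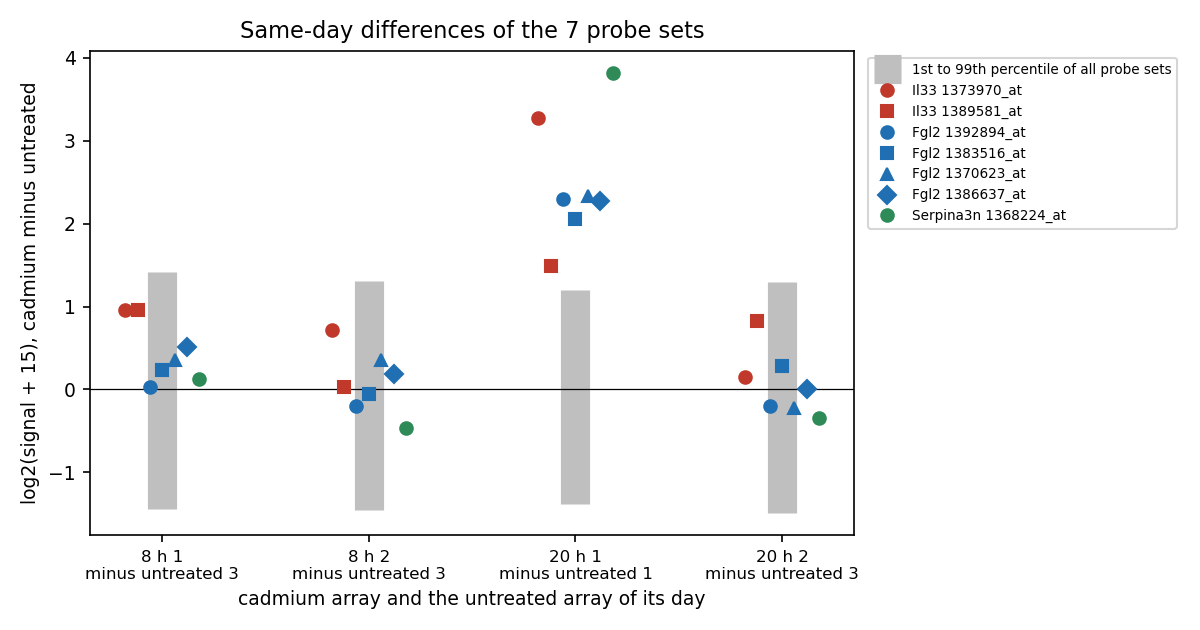
Difference in log2(signal + 15) between each cadmium array and the untreated array of its day, for the 7 probe sets; grey bars span the 1st to 99th percentile of all probe sets. On 20 h replicate 1 all 7 lie above the bar's top of 1.20, and on the other 3 arrays all lie inside the bars.

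At 8 h the mean signals of Il33 and Fgl2 lay above those of untreated testis, and no difference passed the test. The choice of genes used no 8 h array. The log2 difference was 0.88 ± 0.67 (SE) for Il33 1373970_at, a 1.84-fold higher level on the log2(signal + 15) scale (limma, adjusted p = 0.839). With hybridization day as a block it was 1.62 (limma, adjusted p = 0.806) in a fit where both 20 h arrays, hybridized on different days, also set the day effect, 20 h replicate 1 among them. Mean signals were 22.9 ± 4.18 (SD, n = 3) untreated and 54.6 ± 8.20 (SD, n = 2) at 8 h. The Fgl2 differences were 0.32 to 0.60, with 116.4 ± 1.48 (SD, n = 3) untreated and 154.7 ± 0.778 (SD, n = 2) at 8 h for 1370623_at, a log2 difference of 0.37 ± 0.56 (SE; limma, adjusted p = 0.913). For Serpina3n no test at 8 h is given, since it passed the filter on dim signals through 20 h replicate 1, and without that array it did not pass; its means were 23.6 ± 10.6 (SD, n = 3) untreated and 30.6 ± 12.9 (SD, n = 2) at 8 h.

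Of the 5 probe sets of Il33 and Fgl2 that passed the filter also without 20 h replicate 1, 0 were called. Il33 1373970_at passed it there through both 8 h arrays alone, with the untreated arrays and 20 h replicate 2 below the cut. Its 8 h tests and their direction are therefore a description. Over all probe sets 0.00% were called at 8 h, with 1088 below 0.05 before adjustment; leaving out 8 h replicate 2 gave 1 call. Both 8 h arrays exceeded all untreated arrays for 3 of the 7 probe sets, namely Il33 1373970_at and Fgl2 1370623_at and 1386637_at, and this held for 7.21% of all probe sets. The SE above carries the gap between both 20 h animals. For Il33 1373970_at the unadjusted p in limma was 0.221 with all arrays, 0.0339 without 20 h replicate 1, 0.0146 without 20 h replicate 2 and 0.0382 with day as a block, and the adjusted p was 0.763, 0.757 and 0.806 in these last 3. A fit of the 8 h and untreated arrays alone, added after the values were seen, gave an unadjusted p of 0.0348 and an adjusted p of 0.756 in limma. Serpina3n and the dimmer Il33 probe set did not pass the filter there. Against untreated replicate 3 of the same day, Il33 1373970_at was higher by 0.96 on 8 h replicate 1 and by 0.72 on 8 h replicate 2. The Fgl2 probe sets ran from 0.03 to 0.51 and from -0.20 to 0.36, and Serpina3n gave 0.13 and -0.46. None of the 7 was 2-fold higher on this scale on either array, where 3.78% and 3.01% of all probe sets were. As ratios of signals, Il33 1373970_at was 2.54 and 2.05 times its same-day control, and 1389581_at 3.23 and 1.05 times.

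Genes around IL-33 were followed through a list of its family and its receptor chain. The receptor gene Il1rl1 was dim, with 7.2 on 20 h replicate 1 and at most 63.0 on any array, that of 8 h replicate 1, and did not pass the filter. Il1rap, its partner, gave 36.2 to 55.3 untreated, 27.5 and 41.3 at 8 h, and 47.7 and 32.2 at 20 h. Myd88, the adaptor, gave 240.7 to 277.6 untreated, 265.0 and 195.6 at 8 h, and 287.9 and 223.9 at 20 h, so each lay inside its untreated range on some cadmium arrays and under it on others, with Myd88 just above it on 20 h replicate 1. Of 21 genes of receptor and signalling, 0 were called at 8 h and 0 at 20 h. On 20 h replicate 1, 2 were at least 2-fold higher, beside 1.25% of all genes kept. Irak3, an inhibitor of this signalling, gave 77.9 there, 12.5 on its same-day control, and 49.2 and 44.0 on the other untreated arrays. Tnfaip3, which ends NF-kB signalling, gave 214.4 on 20 h replicate 1 against 66.5 to 100.1 untreated. Nfkbia, the NF-kB inhibitor, gave 323.9 there against 172.9 to 212.6 untreated, and Tab1 and Ikbkb, a kinase of that inhibitor, had the lowest same-day differences of the list, both -0.31. Nfkb1, an NF-kB subunit, gave 57.3 to 68.4 untreated and 74.8 and 34.1 at 20 h. Irak2, a kinase of this chain, was at most 45.0 on any array and did not pass the filter.

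Among other ligands of the family Il1a, which also acts as an alarmin, gave 263.5 and 67.5 at 20 h, with 60.2 to 86.8 untreated. Il18 had 191.2 and 149.6 at 20 h within its untreated range of 139.0 to 236.0. Il36rn, a receptor antagonist of the family, had 25.7 and 35.3 within 22.8 to 53.4. Il1b and Il1rn, the receptor antagonist, were at most 32.1 and 5.1 on any array. Of the type 2 effectors 5 of 20 genes passed the filter, 0 were called and 0 were 2-fold higher on 20 h replicate 1. Ccl11, the eosinophil chemokine, gave 113.5 to 159.6 untreated, 291.8 and 210.2 at 8 h, and 214.5 and 210.7 at 20 h. All 4 cadmium arrays were above the untreated ones, with a log2 difference of 0.74 ± 0.22 (SE) at 8 h (limma, adjusted p = 0.836). Gata3, a transcription factor of type 2 lymphoid cells, came next to Ccl11 in same-day difference on 20 h replicate 1, at 0.64, with 66.1 and 16.6 at 20 h and 24.5 to 63.3 untreated, and Retnla the lowest, -0.87. Il6, a cytokine upstream of STAT3 that did not pass the filter, gave 118.2 on 20 h replicate 1 and at most 21.6 elsewhere.

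In the coagulation list, F3 had the largest same-day difference on 20 h replicate 1 and the profile most like that of Fgl2. F3 encodes tissue factor, which starts the clotting cascade that Fgl2 bypasses by cleaving prothrombin. It gave 85.2 to 107.8 untreated, 119.8 and 80.3 at 8 h, and 347.7 and 96.1 at 20 h. F13a1, the fibrin cross-linking subunit, gave 127.5 there and 41.9 to 96.3 untreated. Anticoagulant genes did not share this course: Thbd, thrombomodulin, had 62.3 on 20 h replicate 1 and 56.3 to 65.8 untreated, and Tfpi, the inhibitor of tissue factor, 608.8 and 469.3 to 627.8. Vwf, the platelet-binding factor of endothelium, was lowest in this list with 39.1 against 70.4 to 85.9. Of 17 genes 0 were called at either time and 2 were 2-fold higher on 20 h replicate 1, beside 1.25% of all genes kept. The inhibitory Fc receptor Fcgr2b was at most 33.9 on any array, and of 5 Fc receptor and checkpoint genes kept, 0 were called and 0 were 2-fold higher. The same-day differences of these 5 reached from -0.71 for Lgals9, a galectin, to 0.14 for Fcgr1a and 0.23 for Fcer1g, chains of activating Fc receptors.

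Part of the list of acute phase genes and STAT3 targets was high beside Serpina3n on 20 h replicate 1. Of 21 genes 7 were at least 2-fold higher there and 1 on the other 20 h array. Over all 11552 genes with a probe set kept these shares were 1.25% and 1.57%. The 7 were Stat3, Socs3, Timp1, Hpx, Cebpb, Cebpd and Junb, and the list's median same-day difference on that array was 0.32. At 8 h the count was 2 of 21 on replicate 1 and 1 on replicate 2, beside 1.70% and 1.45% of all genes. At least 2-fold lower were 3 and 1 of the 21 at 8 h, and 0 and 2 at 20 h. Lrg1, a secreted glycoprotein, gave 6.8 and 16.3 at 8 h with 50.8 to 64.8 untreated, below that range on both arrays. Hp went the other way, with 2388.0 and 1981.1 at 8 h and 692.5 to 1518.7 untreated. Its same-day differences at 8 h were 0.65 and 0.38. Hpx, which binds free haem in plasma, gave 567.1 and 46.6 at 20 h with 48.2 to 89.7 untreated. Timp1, an inhibitor of metalloproteinases, gave 1113.9 and 611.5 with 323.3 to 654.2 untreated. Both C/EBP genes of the list were high on 20 h replicate 1, and Cebpd also on 8 h replicate 1. Cebpb gave 56.3 and 35.2 at 8 h and 178.1 and 25.9 at 20 h, against 40.4 to 55.7 untreated. Cebpd gave 133.1 and 55.9 at 8 h and 234.8 and 59.3 at 20 h, against 32.3 to 58.4. Socs3, the feedback inhibitor of STAT3, gave 7.5 and 24.7 at 8 h and 148.2 and 30.3 at 20 h, with 30.4 to 57.4 untreated, so it was low at 8 h and high on 1 array at 20 h. Junb, a partner in AP-1, gave 340.6 and 23.0 with 66.1 to 91.2.

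Stat3 itself was above the untreated range of 139.0 to 163.0 on both 8 h arrays, at 316.0 and 231.0, and gave 384.1 and 123.1 at 20 h. Its log2 difference at 8 h was 0.77 ± 0.37 (SE; limma, adjusted p = 0.836). Other acute phase genes were not high on 20 h replicate 1: Lcn2, an iron-binding neutrophil protein, had 721.3 against 577.4 to 900.9 untreated, A2m 419.3 against 405.9 to 475.6, and C3, the complement component, 58.0 against 20.1 to 62.5. Fgb, a fibrinogen chain, had the lowest same-day difference, -0.49. Cp, Fgg, Lrg1 and Apcs had 0.0, -0.06, -0.20 and -0.36 there, and Steap4 and Hp 0.97 and 0.73. In limma 0 of the 21 were called at 8 h or at 20 h.

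Of 14 other clade A serpins listed, 3 passed the filter, and of 13 serine proteases 4 did. None of these followed Serpina3n. Granzyme B (Gzmb) did not pass the filter and leukocyte elastase (Elane) was not measured, so these targets of Serpina3n were not seen. Serpina5, a testis-expressed serpin, gave 1463.5 to 2199.6 untreated and 1699.3 and 2093.6 at 20 h. Serpina4, which inhibits kallikrein, gave 59.2 to 87.7 untreated and 68.6 on 20 h replicate 1. Serpina1 had 33.5 on 20 h replicate 1, the lowest of its 7 arrays, with 48.5 to 59.1 untreated. Of 4 protease genes kept, 0 were 2-fold higher there; Gzma and Gzmk, both granzymes, gave 31.4 and 71.3, with 19.8 to 32.7 and 63.4 to 83.4 untreated. Tpsb2, a mast cell tryptase, gave 48.6 and 28.8 at 20 h against 82.9 to 93.2 untreated, below that range in both animals. In the IL-6 receptor family Jak2 and Il6st, the shared receptor chain, had the largest differences, each 0.71, with Il6st at 449.0 against 268.6 to 315.1 untreated; 0 of 9 were 2-fold higher, and Tyk2, another kinase of these receptors, was lowest at -0.55. Irf1, an interferon-induced factor, was the 1 of 21 interferon genes that was, with 184.3 against 68.9 to 85.4. Of all genes kept 1.25% were. Ifit2 followed with a difference of 0.74, at 48.6 against 23.2 to 37.1. Cxcl9, a T-cell chemokine, was lowest in that list, with 58.2 against 81.8 to 124.0.

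Taking the 10 related lists as 1 set of 107 genes without the 3 chosen ones, limma called 0 at 8 h and 0 at 20 h, with 4 and 6 genes under an unadjusted p of 0.05. The share called over all 20857 probe sets at 20 h was 0.00%, with 648 under an unadjusted p of 0.05; without 20 h replicate 2 there were 8 calls. Of all genes kept, 1.25% were at least 2-fold higher than the same-day control in the first 20 h animal and 1.57% in the second. Of these 107 genes the shares were 12.1% and 0.935%. The lists are small and share genes, and the first array was picked for 3 genes close to them, so these shares describe that animal.

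**Figure D3:**
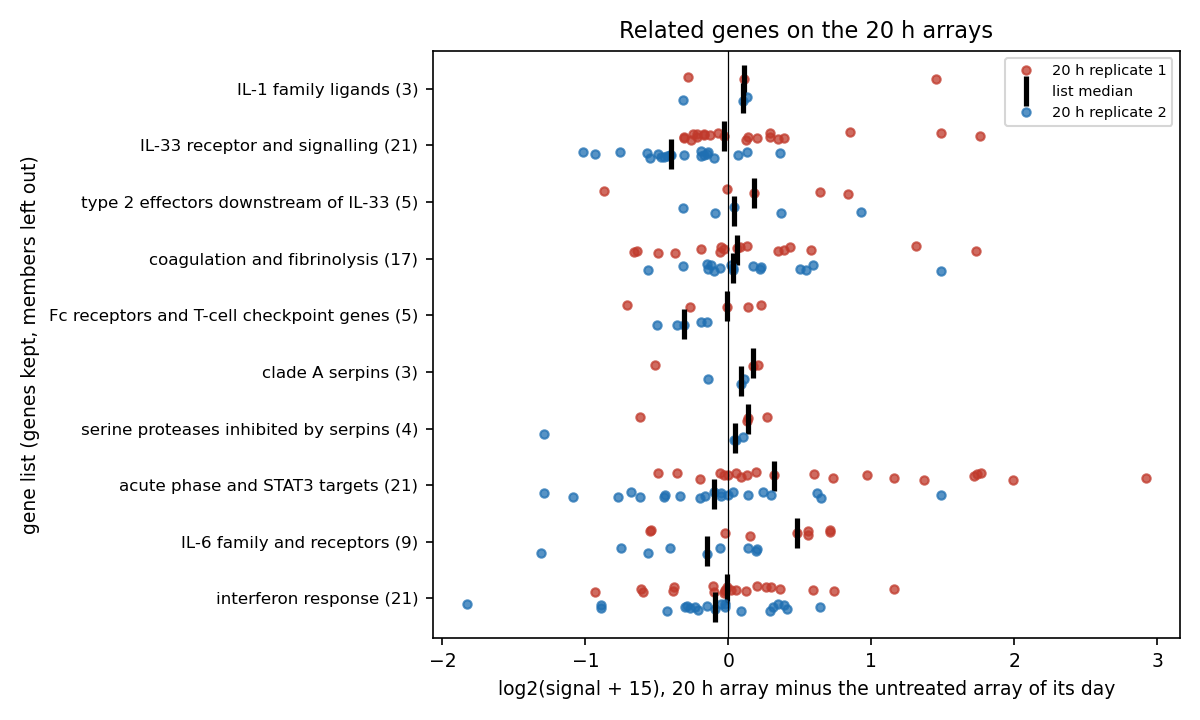
Same-day difference in log2(signal + 15) on each 20 h array for genes of the 10 related lists (number of genes in parentheses, the 3 chosen genes left out); black ticks are list medians. The acute phase list reaches 2.92 (Hpx) on 20 h replicate 1, with medians of 0.32 there and -0.10 for the second animal.

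The genes with profiles nearest to each chosen gene were found by the root mean square difference over the 7 arrays of log2(signal + 15), centred on the untreated mean. For Il33 1373970_at they were Atf3 at 0.28, Fos at 0.34, Nipsnap3b at 0.38, Fgl2 at 0.40, Serpina3n at 0.42 and Egr1 at 0.46. Atf3, a stress-induced transcription factor, was above its untreated range on both 8 h arrays as well, with 1.9 to 6.0 untreated, 38.5 and 24.8 at 8 h, and 129.1 and 4.0 at 20 h. Fos and Egr1 are immediate early transcription factors, and Fos gave 2.5 to 19.3 untreated and 150.2 on 20 h replicate 1. For Fgl2 1392894_at the nearest were F3 at 0.28, Cnn3 at 0.32, G0s2 at 0.33, Litaf at 0.35, Ier3 at 0.37 and Snap91 at 0.37. Cnn3, an actin-binding calponin, gave 434.3 on 20 h replicate 1 with 114.0 to 137.7 untreated, and G0s2, an inhibitor of fat breakdown, 266.0 with 47.2 to 72.5.

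For Serpina3n the nearest were Hpx at 0.33, Egr1 at 0.34, Adm at 0.38, Il33 at 0.42, Icam1 at 0.47 and Fgl2 at 0.49. Adm, a vasodilator peptide, gave 322.3 and 18.4 at 20 h, with 16.5 to 43.7 untreated. Icam1, the leukocyte adhesion molecule of vessels, gave 318.5 and 42.2 with 26.5 to 59.8 untreated. Each of the 3 chosen genes that appears beside another was picked for the same array, and 20 h replicate 1 weighs most in the measure.

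**Figure D4:**
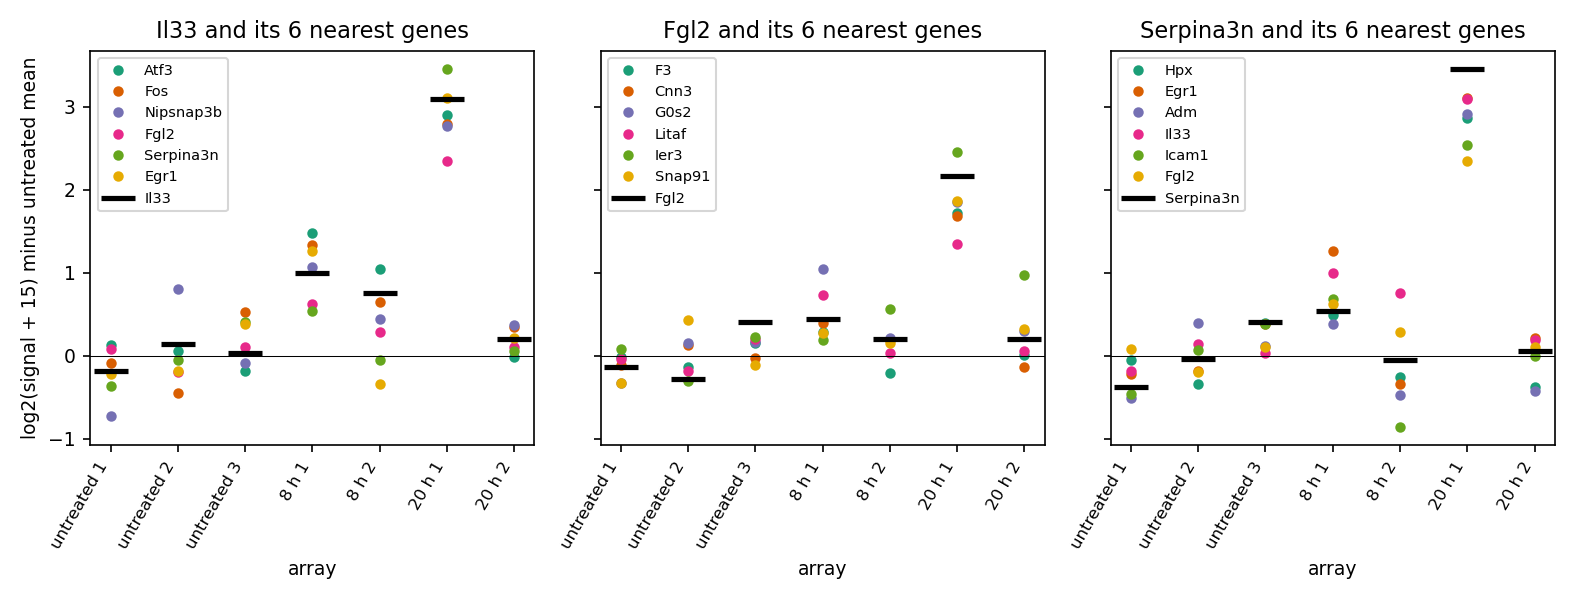
Difference of log2(signal + 15) from the untreated mean on each array, for Il33, Fgl2 and Serpina3n (black bars, brightest probe set) and the 6 genes nearest to each (dots). All are highest on 20 h replicate 1, and at 8 h Il33, Atf3, Fos, Cnn3 and G0s2 are among those above their untreated arrays on both replicates.

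Neighbouring genes in the RefSeq gene order that passed the filter gave no like course. Tpd52l3, Ccdc146 and Gsc were not measured, and Gsap, Serpina3c and Serpina3l did not pass the filter. Both genes directly next to Fgl2 and both directly next to Serpina3n were therefore not compared. Beside Il33, Ranbp6 and Brd10 had same-day differences of -0.22 each on 20 h replicate 1, and Uhrf2 0.02. Ptpn12, near Fgl2, had 0.05, and Dicer1, near Serpina3n, -0.79. Fgl2 overlaps Ccdc146 in that table. These neighbours were looked up after the values were seen.

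Markers of several cell types differed between the arrays. Endothelial markers, 11 of 15 kept, summed to 1008.1 to 1113.4 untreated, 550.9 and 807.3 at 8 h, and 641.6 and 867.5 at 20 h, so all 4 cadmium sums were lower. Their median same-day difference was -0.68 and -0.25 at 8 h, -0.85 on 20 h replicate 1 and 0.02 on 20 h replicate 2. At least 2-fold lower were 4 and 0 of the 11 genes at 8 h, and 5 and 1 on 20 h replicates 1 and 2. Over all genes kept these shares were 1.73% and 2.03% at 8 h, and 1.98% and 2.03% at 20 h. Flt1 and Esam were not lower on 20 h replicate 1, with same-day differences of 0.75 and 0.03. Macrophage markers, 12 of 13 kept, summed to 5378.6 to 5825.0 untreated, 6266.5 and 6266.2 at 8 h, and 6190.8 and 6241.2 at 20 h. Aif1 alone made up 3216.4 to 3975.4 of these sums. The median same-day difference of the macrophage markers was 0.42 on 20 h replicate 1, with 2 of 12 genes 2-fold higher. It was -0.03 on the second 20 h array, with 0. Of all genes kept 1.25% and 1.57% were 2-fold higher on these arrays. Cd163, a macrophage scavenger receptor, gave 37.4 to 52.3 untreated, 106.8 and 84.3 at 8 h, and 137.3 and 77.2 at 20 h. Csf1r went the other way, with 122.9 to 128.9 untreated, 70.8 and 102.1 at 8 h, and 80.0 and 110.0 at 20 h. The median fitted log2 difference of the 12 was 0.17 at 8 h and 0.08 at 20 h, beside -0.03 over all genes. Of 11 neutrophil markers 1 passed the filter, and S100a8 and S100a9 did not. Leydig cell markers, 9 of 10 kept, summed to 6469.8 to 8680.0 untreated and to 11817.9 and 7484.9 at 8 h. At 20 h their sums were 2953.3 and 7726.7, lowest on the array where the 3 genes were highest. There their median same-day difference was -0.74, with 4 of 9 genes at least 2-fold lower, beside 1.98% of all genes kept. On 20 h replicate 2 this median was -0.19. Cyp17a1 gave 127.4 on 20 h replicate 1 with 1116.0 to 2239.5 untreated, and Insl3 1185.6, within 1126.7 to 1827.8. Mast cell markers, 4 of 8 kept, summed to 187.6 to 258.8 untreated and 181.1 and 140.4 at 20 h, and T, NK and innate lymphoid markers, 7 of 13 kept, to 967.5 to 1242.3 and 993.9 and 813.7.

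Red cell, platelet and plasma markers, 7 of 13 kept, summed to 1946.0 to 2902.0 untreated and to 3839.0 and 2635.7 at 20 h, with Hbb, a haemoglobin chain, at 2954.0 on 20 h replicate 1 and 1038.0 to 1958.1 untreated. Hbb was the 1 gene of the 7 that was 2-fold higher on 20 h replicate 1, where 1.25% of all genes kept were. The median same-day difference of this list was 0.06 there and -0.35 on 20 h replicate 2. Alas2 gave 463.7 on 20 h replicate 1 and 471.6 to 570.9 untreated. Perivascular and fibroblast markers, 5 of 11 kept, summed to 1528.0 to 3875.6 untreated and 1369.1 and 1818.9 at 20 h, muscle markers, 7 of 7, to 1644.6 to 1810.9 and 1989.2 and 1497.1, and Sertoli cell markers, 8 of 11, to 12935.3 to 14843.4 and 13597.4 and 16040.0. Actin probe sets at both transcript ends, whose log2 ratio reads RNA quality, gave 0.92 for the first 20 h animal and 0.99 for its same-day control, and 1.19 to 1.42 over the day 3 arrays. The part of these markers and this ratio in the signals of the 3 genes was not tested.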

How the data were processed

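Rat230_2 arrays of 7 testes were analysed. The authors deposited 1 linear intensity for each probe set, computed with MAS 5.0 per the labels' design text; its trimmed mean, without 2% of probe sets at each end, is 250.1 on every array. The deposited experiment files hold other settings, per the file headers, and gave the array type and hybridization day. Untreated replicate 2 was stained at 25 °C for 600 s, the other arrays at 35 °C for 300 s, and its experiment file names mouse as sample type; it was kept.

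Values were used as log2(signal + 15), with no further normalization. The filter on dim signals asked for 2 or more arrays above the array's 40th percentile; 20857 of 31042 probe sets passed, among them 6 of the 7 described here. Groups were fitted in limma 3.58.1 under R 4.3.3 (eBayes, intensity trend), with Benjamini-Hochberg adjustment over all probe sets kept and a threshold of 0.05; the script was tested on simulated data. Contrasts holding 20 h replicate 1 are described for the chosen genes, with no test. Genes are named from the platform annotation. Lists used 1 probe set per gene, the brightest, and no set test.

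Named were all probe sets of the 3 genes, their 6 nearest genes each, listed pathway genes (some are not reported here) and per list the largest and lowest same-day differences. The genes and lists were chosen with earlier results of these data known. The alternatives were other normalizations, pseudocounts, filters, blocks and each array left out.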

Additional observations from a re-analysis of the deposited data

How the results depend on the processing

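For Il33 and Fgl2, 0 probe sets were called at 8 h or on 20 h replicate 2 under any alternative run. At 8 h every difference of their 5 probe sets that passed the filter stayed above 0. For Il33 1373970_at, which passed without 20 h replicate 1 through the 8 h arrays alone, this sign is a description. On 20 h replicate 2, hybridization day as a block turned Fgl2 1392894_at to -0.20 (limma, adjusted p = 0.888) and Fgl2 1386637_at to 0.00 (adjusted p = 0.999), since the contrast then rests on untreated replicate 3. The median of the 6 probe sets at 20 h, 1.39 on the log2 scale, was 0.20 without 20 h replicate 1 (5 probe sets passing the filter) and 2.34 without 20 h replicate 2.

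Over all probe sets, calls at 8 h ranged from 0 to 1 when single arrays were left out (1 without 8 h replicate 2), and at 20 h from 0 to 8 (8 without 20 h replicate 2). On 20 h replicate 2 the range was 0 to 638: 638 without untreated replicate 3, and 1 without untreated replicate 1; the cause was not tested. Day as a block gave 2 calls there.

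Replicate numbers did not pair the samples: deviations of same-numbered arrays correlated at -0.02, 0.09 and 0.15 over 15827 probe sets. With the replicate block, 0 probe sets were called at 8 h or at 20 h. Il33 1373970_at was 0.90 at 8 h (limma, adjusted p = 0.478). Fgl2 1383516_at was 1.38 on 20 h replicate 2, where its same-day difference was 0.28. Untreated replicate 3 is the only array with that number, so the block takes it out of these differences. They then hold no untreated array of day 3 and cannot be told apart from hybridization day.

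The number of arrays, 2 for each cadmium group, and signals near background for Il33 and Serpina3n limit the precision.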
